A study of Mus musculus with 13 samples.

Results

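The RNAs described here are 10 genes whose transcripts are not translated and that build or organise cellular machines: Rn7s1 and Rn7s2 (the RNA of the signal recognition particle), Rn7sk (7SK), Rmrp and Rpph1 (the RNAs of RNase MRP and RNase P), Rny1 (a Y RNA), Rnu12 (the U12 small nuclear RNA), Terc (telomerase RNA), and the long nuclear RNAs Malat1 and Neat1. They were chosen by name, not by a measured value, from the 55332 genes with values in a bulk RNA sequencing table of mouse NUT carcinoma (mNC) tumors. NUT carcinoma is an aggressive squamous carcinoma, which NCT mice develop after Cre recombinase acts in single cells of the targeted tissue. The 13 tumors comprised 4 oral wild-type (WT) tumors of genotype KRT14-Cre; NCT+/-, 2 oral Sox2 knockout (KO) tumors labelled KRT4Cre; NCT+/-; Sox2fl/fl, 4 pancreatic WT tumors of genotype Pdx1-Cre; NCT+/-, and 3 pancreatic KO tumors labelled Pdx1-Cre; NCT+/-; Sox2fl; fl. All groups thus carried the NCT alleles and a Cre transgene, and the oral Cre driver is spelled differently in the WT and KO labels. The methods describe the KO animals as offspring of an intercross of lines already homozygous for the floxed Sox2 allele, so that the deletion and the breeding of the line cannot be told apart. Ages were not given, and the numbers of the tumors were taken from their titles.

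Sox2 was read at 10.3 to 32.2 counts scaled to a common library total of 1e6 (CPM) in the 8 WT tumors and at 0 to 2 counts in each KO tumor. Total counts ran from 29394258 to 40420228 in oral WT, were 11735315 and 20432164 in oral KO, ran from 40964533 to 46134830 in pancreatic WT and from 89562790 to 120482829 in pancreatic KO tumors. The KO libraries were thus all smaller than the WT libraries in oral tumors and all larger in the pancreas. Genotype and library size therefore cannot be told apart at either site. The first oral KO tumor stood apart: 59.5% of its counts fell on protein-coding genes against 84.5% to 91.7% in the other 12 tumors. In the same library 5.42% of counts fell on TEC transcripts (loci that GENCODE lists as awaiting experimental proof) and 3.75% on mitochondrial rRNA, against at most 1.11% and 1.12% elsewhere. The 84.5% and the 1.11% are those of the second oral KO tumor, which thus lay nearest to the first. Small nucleolar RNA (snoRNA) genes took 0.302% and 0.197% of counts in the first and second oral KO tumor, and at most 0.0852% in any other. Both oral KO tumors also held skeletal muscle RNA: the 12 muscle markers summed to 4843 and 3961 CPM, against 18.6 to 630 CPM in oral WT and 8.58 to 14.95 CPM in the pancreatic tumors. The 10 squamous carcinoma markers summed to 6260 to 19840 CPM over all tumors and none was at 0 throughout a group.

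The signal recognition particle brings ribosomes that make secreted and membrane proteins to the endoplasmic reticulum, and its RNA is the scaffold of the particle. 7SK holds the elongation factor P-TEFb in an inactive complex with Hexim proteins, RNase P trims the leader of tRNAs, and RNase MRP, a close relative that shares most of its proteins, cuts the ribosomal RNA precursor. Y RNAs bind the Ro and La proteins, U12 pairs with the branch site of the rare introns removed by the minor spliceosome, and Terc is the template of telomerase. Malat1 sits in nuclear speckles, Neat1 scaffolds paraspeckles, and RNase P cuts the 3′ end of Malat1 and of the long form of Neat1. RNA polymerase III transcribes the signal recognition particle RNA, 7SK, Rmrp, Rpph1 and Y RNAs, and RNA polymerase II the others.

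Sequence decided what the table can tell about several of these RNAs. Rn7s1 (chr12:69159295-69159594, plus strand, 109 bases from Rps29) and Rn7s2 (chr12:69361182-69361481, minus strand) have the same 300 bases, so that reads cannot be assigned to one gene or the other. All coordinates are GRCm38 with the GENCODE M21 annotation, and the sequences printed below are its transcripts, written 5′ to 3′ as DNA. The estimated counts of both genes were the same in every tumor (largest difference 0), so that they are 1 measurement on a pair of rows, and the value of each gene is one part of an equal split. The 10 genes therefore gave 9 distinct measurements.

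Rnu12, the RNA with the largest fold difference below, lies on chr15:83149644-83149794 (plus strand, 260 bases from Poldip3) and shares most of its sequence with other loci. In its 151 bases and in the 112 bases of Rny1 (chr6:47788069-47788180, minus strand), capitals mark the bases that lie in runs of 31 bases also found in a transcript of another gene, 31 being the word length used by default in kallisto, the program that made the counts.
Rnu12: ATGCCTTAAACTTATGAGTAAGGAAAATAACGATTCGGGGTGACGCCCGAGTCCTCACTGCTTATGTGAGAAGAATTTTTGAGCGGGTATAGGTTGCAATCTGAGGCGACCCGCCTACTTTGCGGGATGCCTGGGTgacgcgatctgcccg
Rny1: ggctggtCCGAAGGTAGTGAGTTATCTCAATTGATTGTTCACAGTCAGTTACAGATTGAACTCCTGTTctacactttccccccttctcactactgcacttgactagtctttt
In Rnu12 136 bases were so marked and 87.6% of its words were shared, and in Rny1 61 bases and 37.8%. The near copies took few counts: Gm24525 reached 1.53 CPM and Gm23502 0.0852 CPM in oral KO tumors, Gm25703 was at 0 in all tumors, and Gm26168, the copy of Rny1, stayed at or below 0.0856 CPM.

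Rmrp is listed as a pair of rows on the minus strand of chromosome 4, a ribozyme row (chr4:43492788-43493058) and a lincRNA row (chr4:43492783-43493063), both opposite an exon of Ccdc107. The lincRNA row is the ribozyme sequence with 10 added bases, in capitals, so that a read inside the 271 shared bases fits both.
Rmrp lincRNA row: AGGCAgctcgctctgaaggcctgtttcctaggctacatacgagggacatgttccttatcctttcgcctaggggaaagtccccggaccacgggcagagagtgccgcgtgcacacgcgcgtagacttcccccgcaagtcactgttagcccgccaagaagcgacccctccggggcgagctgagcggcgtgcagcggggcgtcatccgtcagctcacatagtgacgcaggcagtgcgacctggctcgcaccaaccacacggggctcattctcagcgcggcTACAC
The ribozyme row took 96.2% to 98.8% of the counts and is the value given for Rmrp below. Rpph1 (chr14:50807449-50807767, minus strand) lies within an exon of Ccnb1ip1 on the same strand and shared 70.2% of its words with other genes. Rn7sk (chr9:78175303-78175633, minus strand) shared 72.8%. Terc (chr3:96414437-96414859, minus strand) shared none, Malat1 (chr19:5795690-5802672, minus strand) 2.39% and Neat1 (chr19:5824708-5845478, minus strand) 2.14%.

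Levels between genes were compared per kilobase of exon. The signal recognition particle RNA and 7SK led in every group, Rmrp and Rpph1 came next, then Malat1, and Rnu12, Rny1 and Neat1 lay lower with Terc last. Neat1 was divided by 20771 bases although a transcript of 3004 bases is also listed, so that its place depends on the form present. In oral WT tumors the median of Rn7s1 was 40229 CPM per kilobase and that of Rn7sk 38509, with ranges that overlapped (35618 to 41478 and 33220 to 43080), so that these neighbours did not differ beyond their spread. Since Rn7s2 added as much again, the summed signal recognition particle RNA exceeded 7SK in each of the 13 tumors. In pancreatic WT tumors Rn7s1 alone stood at a median of 80193 CPM per kilobase against 25783 for Rn7sk, and these ranges did not overlap. Rmrp (median 9679 CPM per kilobase) lay above Rpph1 (4710) in oral WT tumors without overlap, whereas in pancreatic WT tumors Rpph1 (6315) and Rmrp (5917) overlapped. Terc was at medians of 4.25 CPM per kilobase in oral WT and 1.98 in pancreatic WT tumors.

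**Figure D1:**
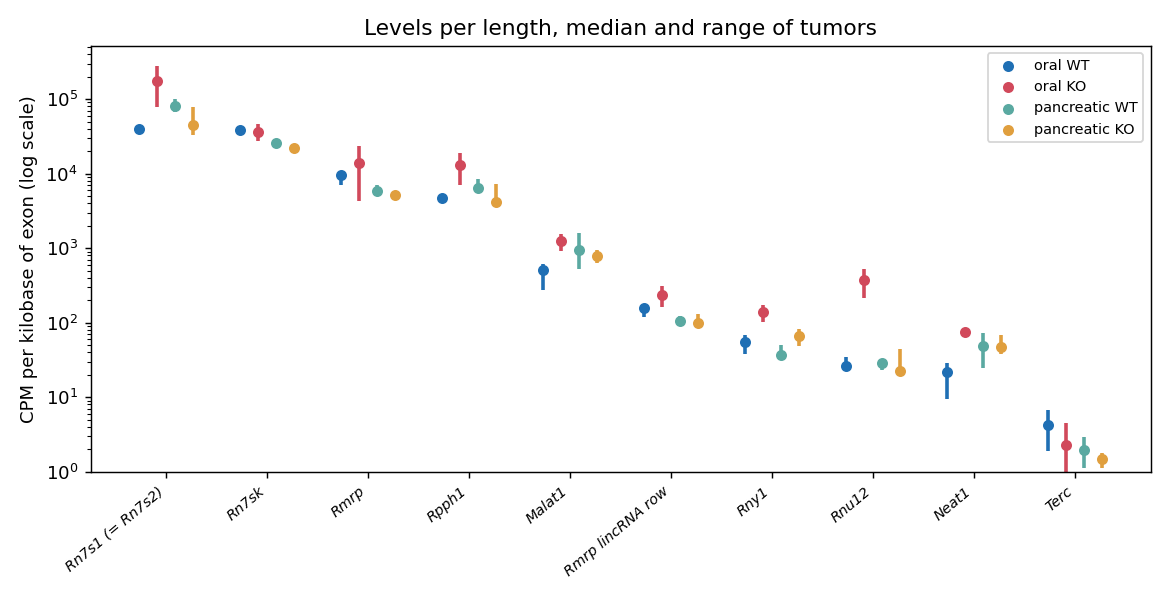
Level of each RNA on a log axis, in CPM per kilobase of exon, for the 4 groups; points are medians over tumors and lines run from the lowest to the highest tumor (cut off at the axis for Terc in oral KO, where 1 tumor is at 0). Over the gene order set in oral WT tumors the medians fall from about 40229 for Rn7s1 to 4.25 for Terc, and oral KO stands above the other groups for Rnu12 and Rny1.

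Together the 10 genes took 4.03% to 4.72% of all counts in oral WT tumors, 20.1% and 7.17% in the first and second oral KO tumor, 5.65% to 8.60% in pancreatic WT and 3.52% to 6.55% in pancreatic KO tumors. The 95% Wilson intervals of these shares were at most 0.0229 percentage points to either side, which covers counting error only. Most of the spread came from Rn7s1 and Rn7s2, which took 2.14% to 2.49% in oral WT, 16.6% and 4.67% in oral KO, 4.05% to 6.0% in pancreatic WT and 1.97% to 4.76% in pancreatic KO tumors. The other members together held 1.89% to 2.24%, 3.56% and 2.50%, 1.61% to 2.60% and 1.55% to 1.81% in the same order of groups. In bulk tumors, more cells that hold an RNA and more of it per cell cannot be told apart.

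**Figure D2:**
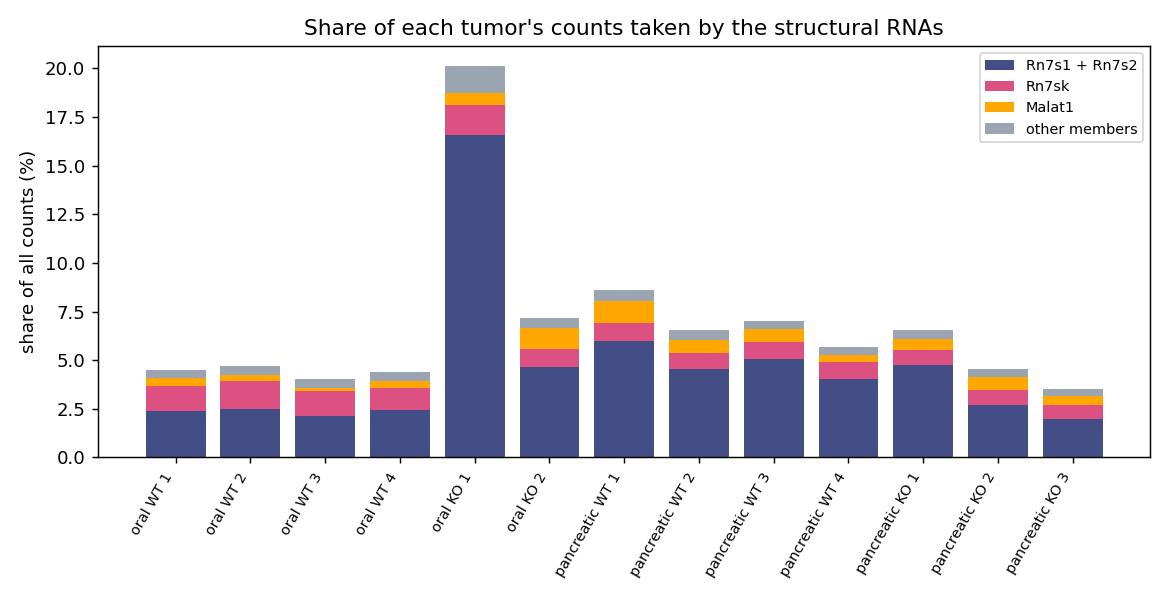
Stacked bars of the percentage of all counts taken by Rn7s1 and Rn7s2, Rn7sk, Malat1 and the other members in each of the 13 tumors. The first oral KO tumor reaches 20.1%, of which 16.6 points are Rn7s1 and Rn7s2, and the other tumors lie between 3.52% and 8.60%.

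The first comparison asked how these RNAs differed between oral KO and oral WT tumors. U12 and the signal recognition particle RNA had the largest differences, and the nuclear RNAs Malat1 and Neat1 were higher as well, while 7SK, Rmrp and Terc did not pass the test. Of the 10 genes, 5 were called higher and 0 lower (edgeR quasi-likelihood test, Benjamini-Hochberg adjusted p under 0.05 and log2 fold change beyond 1), and as Rn7s1 and Rn7s2 are the same values this is 4 measurements. Over all 22342 genes tested 8.81% were called higher and 11.7% in either direction. The median log2 fold change was 1.68 over the 10 genes and -0.003 over all genes. In 7 of the 10 genes, with Rn7s1 and Rn7s2 counted separately, both KO tumors exceeded all 4 WT tumors on the normalised scale. Of all genes, 46.9% had groups that did not overlap, counting both directions. Leaving out either KO tumor leaves 1 in its group. Fewer genes were then called, among the 10 and over all genes alike. Among the 10 genes 1 was called without the first or the second WT tumor. Over all genes 43 and 19 were then called higher and 27 and 17 lower. Without the third or the fourth WT tumor 3 of the 10 were called, and over all genes 912 and 1877 higher and 302 and 739 lower.

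Rnu12 was read at 3.35, 4.32, 3.67 and 5.22 CPM in oral WT tumors 1 to 4 and at 31.9 and 80.2 CPM in the KO tumors of the same site. Both KO values lay far above the WT range, and here the second KO tumor, not the first, was the higher one. The log2 fold change was 3.80 (SE 0.29, edgeR adjusted p = 0.00479), or 13.9-fold, and without the first KO tumor it was 4.12 (SE 0.30, edgeR adjusted p = 0.0173). Rnu12 remained called in each of the 15 alternative fits of this comparison, with log2 fold changes of 3.40 to 4.12 and adjusted p from 1.21e-21 to 0.0301. Poldip3, its nearest protein-coding gene, had a log2 fold change of -0.53 (SE 0.23, edgeR adjusted p = 0.149).

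Rn7s1, with Rn7s2 the same, was read at 11848, 12443, 10686 and 12289 CPM in oral WT and at 82886 and 23341 CPM in oral KO tumors. The WT tumors lay close together and both KO tumors above them, the first by a much wider margin. The log2 fold change was 2.51 (SE 0.58, edgeR adjusted p = 0.0354), or 5.68-fold. Without the first KO tumor it was 0.83 (SE 0.30, edgeR adjusted p = 0.143) and no longer called, and leaving out any 1 WT tumor also ended the call (adjusted p = 0.0568 to 0.0909) at log2 fold changes of 2.50 to 2.54. Gm26461, a near copy on chromosome 9 that holds 29.3% of the words of Rn7s1, was called as well (log2 fold change 3.53, SE 0.76, edgeR adjusted p = 0.0341). It was read at only 6.42 to 11.15 CPM in oral WT and at 123.3 and 18.5 CPM in oral KO tumors. Reads of the sequence it shares with Rn7s1 can be counted for either gene, and their part in its values was not tested. Rps29, which lies 109 bases from Rn7s1 on the other strand, fell by 1.22 on the log2 scale (SE 0.31, edgeR adjusted p = 0.042).

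Malat1 was read at 4216, 3041, 1904 and 3964 CPM in oral WT and at 6388 and 10837 CPM in oral KO tumors. Neat1 was read at 588, 404, 195 and 487 CPM in oral WT and at 1394 and 1686 CPM in oral KO tumors. For both RNAs all KO values exceeded all WT values, and the second KO tumor was the higher. The log2 fold changes were 1.5 for Malat1 (SE 0.33, edgeR adjusted p = 0.0321) and 2.05 for Neat1 (SE 0.37, edgeR adjusted p = 0.0234). Leaving out the first KO tumor left them at 1.59 (edgeR adjusted p = 0.0868) and 1.88 (edgeR adjusted p = 0.0826), so that their size stayed while the call was lost. Leaving out the second KO tumor gave 1.43 (edgeR adjusted p = 0.119) and 2.21 (edgeR adjusted p = 0.0848), and leaving out the first or second WT tumor also ended both calls (adjusted p from 0.051 to 0.0903).

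Rpph1 was read at 1298, 1701, 1304 and 1722 CPM in oral WT and at 6095 and 2234 CPM in oral KO tumors. Its log2 fold change of 1.78 (SE 0.49) missed the threshold (edgeR adjusted p = 0.053) and was 0.42 without the first KO tumor. Ccnb1ip1, the gene whose exon holds Rpph1, was called higher (log2 fold change 1.94, SE 0.44, edgeR adjusted p = 0.0335), and reads of shared sequence can be counted for either gene. Rny1 was read at 4.23, 6.46, 7.56 and 5.91 CPM in oral WT and at 19.3 and 11.5 CPM in oral KO tumors, a log2 fold change of 1.58 (SE 0.43, edgeR adjusted p = 0.051) that was 0.77 without the first KO tumor. Rpph1 and Rny1 were thus higher in both KO tumors than in any WT tumor, yet neither was called.

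Rmrp was read at 2414, 2886, 2832 and 1891 CPM in oral WT and at 6271 and 1152 CPM in oral KO tumors. The KO tumors lay on opposite sides of the WT range: the log2 fold change was 0.93 (SE 0.70, edgeR adjusted p = 0.367) and turned to -1.27 (SE 0.38, edgeR adjusted p = 0.108) without the first KO tumor. Rn7sk behaved alike, with 12888, 14259, 12604 and 10996 CPM in oral WT and 15327 and 8927 CPM in oral KO tumors. Its log2 fold change was 0.19 (SE 0.41, edgeR adjusted p = 0.77), and -0.66 without the first KO tumor. Terc was read at 1.87, 2.84, 1.72 and 0.803 CPM in oral WT tumors, at 1.92 CPM in the first KO tumor and at 0 of 20432164 counts in the second, which allows up to 0.147 CPM. Its log2 fold change was -0.54 (SE 1.34, edgeR adjusted p = 0.801).

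**Figure D3:**
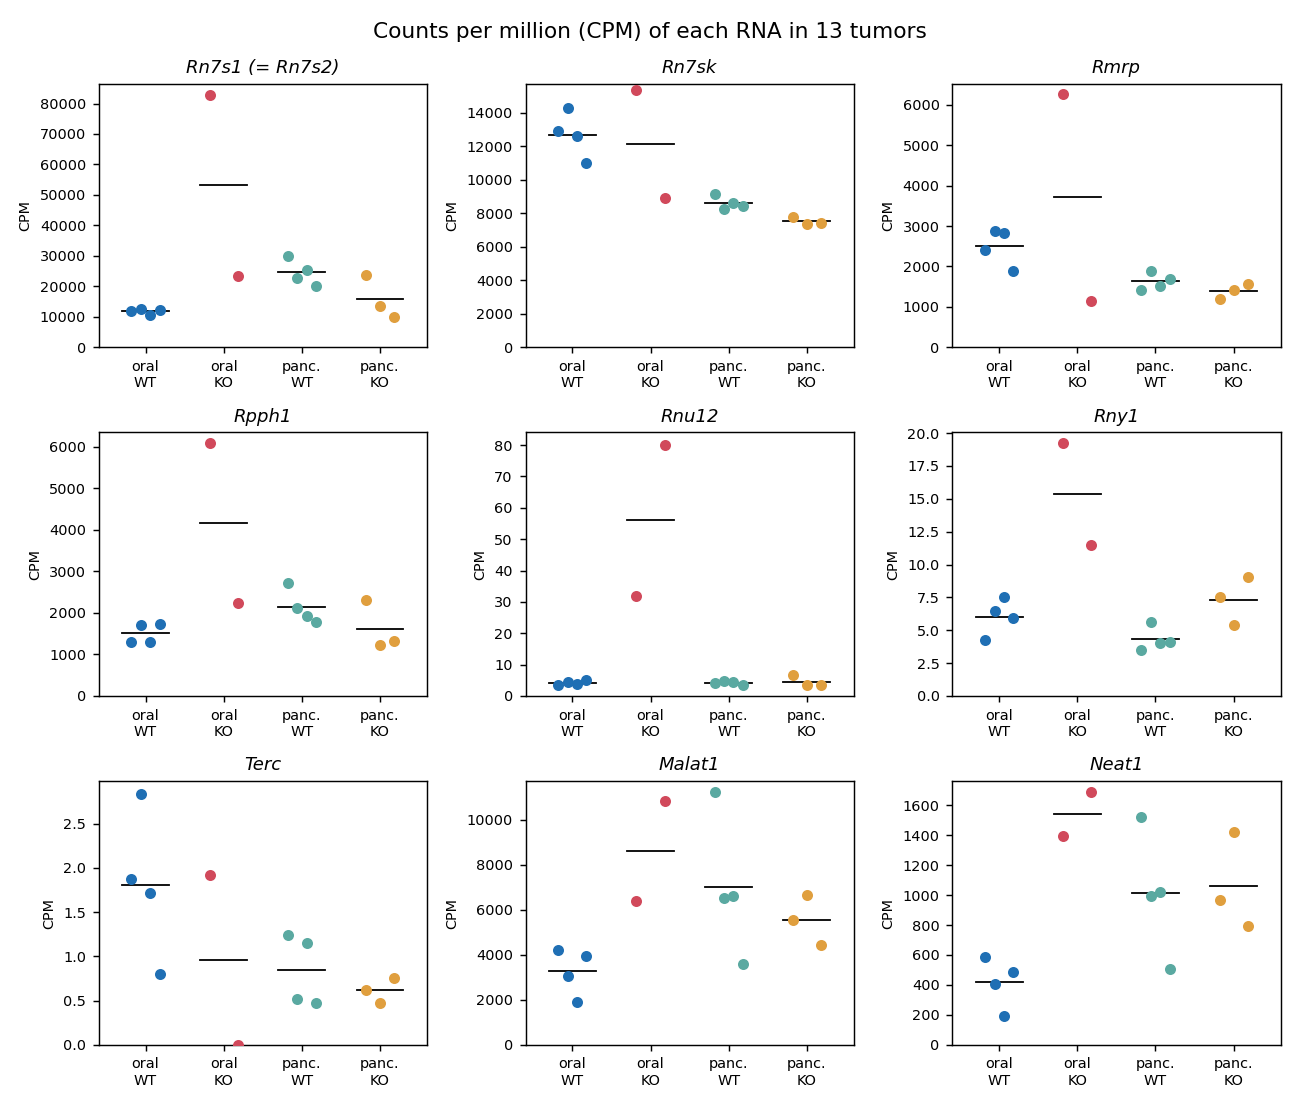
CPM of each RNA in every tumor, 1 panel per RNA with its own linear axis from 0; points are tumors, in the order of their numbers, and lines are group means. In oral KO the first tumor is the higher for Rn7s1, Rn7sk, Rmrp, Rpph1, Rny1 and Terc, and the second for Rnu12 (80.2 against 31.9 CPM), Malat1 and Neat1.

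In the pancreas, KO and WT tumors were compared in the same way, and none of the 10 genes was called, against 0.629% of 24653 genes tested. DESeq2 called 0 of the 10 as well, and 1 gene, Rny1, had an unadjusted p under 0.05. All but 1 of the log2 fold changes were below 0, from -0.76 for Rn7s1 to 0.62 for Rny1, with a median of -0.42 against 0.02 over all genes. For 2 of the 10 genes, Rn7sk and Rmrp, all KO tumors lay below all WT tumors on the normalised scale. Of all genes, 15.5% had groups that did not overlap, counting both directions.

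Rn7s1 was read at 30003, 22833, 25283 and 20233 CPM in pancreatic WT tumors 1 to 4 and at 23822, 13589 and 9844 CPM in the KO tumors. The first KO tumor lay inside the WT range and the other two KO tumors below it, at a log2 fold change of -0.76 (SE 0.35, edgeR adjusted p = 0.335). Rn7sk was read at 9108, 8219, 8627 and 8442 CPM in WT and 7793, 7377 and 7393 CPM in KO tumors (log2 fold change -0.33, SE 0.16, edgeR adjusted p = 0.371). Rmrp, at 1415, 1887, 1520 and 1687 CPM in WT and 1195, 1411 and 1555 CPM in KO tumors, separated the groups only after normalisation (log2 fold change -0.37, SE 0.16, edgeR adjusted p = 0.322).

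Rpph1 was read at 2715, 2115, 1913 and 1774 CPM in pancreatic WT and at 2318, 1215 and 1323 CPM in KO tumors, and the ranges overlapped (log2 fold change -0.52, SE 0.29, edgeR adjusted p = 0.427). Rny1 was read at 3.48, 5.66, 4.03 and 4.14 CPM in WT and at 7.50, 5.40 and 9.08 CPM in KO tumors. It was the only member with a fitted change above 0 (log2 0.62, SE 0.27, edgeR adjusted p = 0.309), and its ranges overlapped by 1 tumor of each group. Rnu12, the leading RNA of the oral comparison, was at 4.13, 4.83, 4.49 and 3.48 CPM in WT and 6.65, 3.37 and 3.43 CPM in KO tumors (log2 fold change -0.04, SE 0.32, edgeR adjusted p = 0.971).

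Malat1 was read at 11235, 6503, 6596 and 3609 CPM in pancreatic WT and at 5531, 6666 and 4423 CPM in KO tumors (log2 fold change -0.47, SE 0.37, edgeR adjusted p = 0.588). Neat1 was read at 1522, 993, 1023 and 508 CPM in WT and at 966, 1422 and 794 CPM in KO tumors (log2 fold change -0.07, SE 0.37, edgeR adjusted p = 0.951). For both RNAs the KO values lay inside the WT range. Terc was read at low counts (21.1 to 82.8), at 0.477 to 1.24 CPM in WT and 0.469 to 0.755 CPM in KO tumors (log2 fold change -0.58, SE 0.42, edgeR adjusted p = 0.552).

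The WT tumors of both sites were compared to see how the RNAs differed by tissue of origin. The signal recognition particle RNA, Malat1 and Neat1 were lower in oral than in pancreatic tumors, and the other small RNAs were not called. Of the 10 genes, 4 were called lower and 0 higher, which is 3 measurements, against 7.24% of 23164 genes called lower and 16.5% in either direction. For 5 of the 10 genes all oral tumors lay below all pancreatic tumors, against 28.0% of all genes with groups that did not overlap in either direction.

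Rn7s1 ran from 10686 to 12443 CPM in oral WT and from 20233 to 30003 CPM in pancreatic WT tumors, and its log2 fold change was -1.33 (SE 0.19, edgeR adjusted p = 0.00219), or 2.51-fold lower in oral tumors. It was called in each of the 17 alternative fits, at log2 fold changes of -1.39 to -1.18. Malat1 (log2 -1.37, SE 0.37, edgeR adjusted p = 0.0262) and Neat1 (log2 -1.56, SE 0.39, edgeR adjusted p = 0.0216) were lower as well, although on the CPM scale the fourth pancreatic tumor (3609 CPM of Malat1 and 508 CPM of Neat1) fell inside the oral range. Leaving out the first pancreatic WT tumor ended both calls, at -1.01 (edgeR adjusted p = 0.0569) and -1.26 (edgeR adjusted p = 0.0521). Leaving out the second oral tumor did so too (edgeR adjusted p = 0.0678 and 0.0574), and the call of Malat1 was also lost without oral tumor 3 or without pancreatic tumor 2 or 3 (edgeR adjusted p = 0.0524 to 0.0587). Rpph1 was lower at an edgeR adjusted p of 0.0221, but its log2 fold change of -0.77 (SE 0.20) did not reach the fold threshold. Rn7sk (log2 0.29), Rmrp (0.36), Terc (0.83), Rny1 (0.22) and Rnu12 (-0.30) had edgeR adjusted p from 0.206 to 0.614. Cell type markers differed between the sites as well: the 8 fibroblast markers summed to 10530 to 22340 CPM in oral WT and 1304 to 2584 CPM in pancreatic WT tumors (7 of 8 called higher in oral), and 4 of 10 squamous markers (Krt5, Krt6a, Dsg3 and Sfn) were called lower in oral tumors. Their part in the difference of the structural RNAs was not tested.

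**Figure D4:**
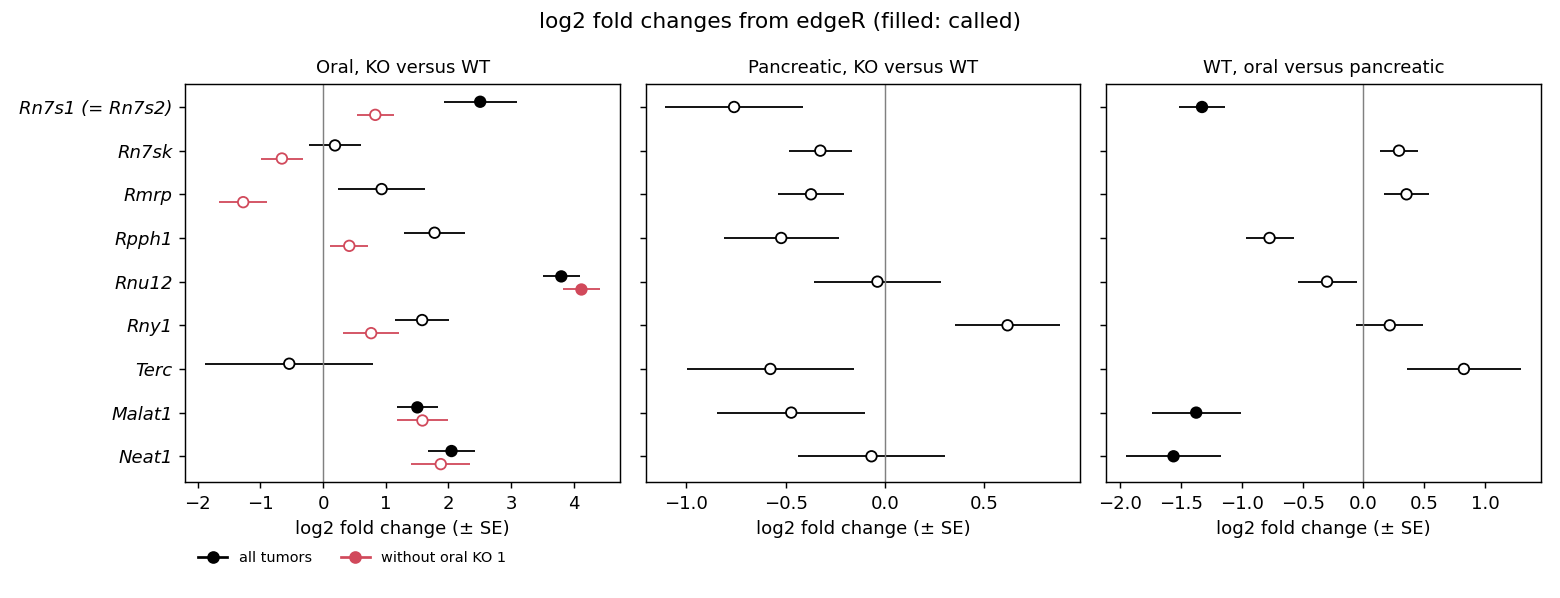
log2 fold changes with their SE from edgeR for the 9 distinct measurements in 3 comparisons, each panel with its own axis; filled points were called. In the oral panel red points leave out the first oral KO tumor (Terc is not drawn there, since the remaining KO tumor is at 0), and only Rnu12 stays called, while Rmrp moves from 0.93 to -1.27.

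Whether the KO difference itself differed between the sites was tested with the product of tissue and genotype over all 13 tumors. It was called for 6 of the 10 genes, all with a higher log2 fold change in oral than in pancreatic tumors. Of 25836 genes, 7.41% were called in that direction and 12.3% in either. The log2 difference of the changes was 3.78 for Rnu12 (SE 0.46, edgeR adjusted p = 0.00229), 3.17 for Rn7s1 and Rn7s2 (SE 0.68, edgeR adjusted p = 0.0149) and 2.21 for Rpph1 (SE 0.59, edgeR adjusted p = 0.0303). It was 2.04 for Neat1 (SE 0.58, edgeR adjusted p = 0.0364) and 1.90 for Malat1 (SE 0.53, edgeR adjusted p = 0.034). Without the first oral KO tumor 1 oral KO tumor remained, which was at 0 for Terc, so that the fitted value of Terc is then no bound. Rn7s1 was at 1.5 in that fit. Without pancreatic WT tumor 1 or 3, or without pancreatic KO tumor 3, 3 of the 10 genes were called. Over all genes 1038, 959 and 825 were then called with a higher log2 fold change in oral than in pancreatic tumors, against 1914 with all tumors.

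Ratios within a tumor do not depend on the total. The log2 ratio of signal recognition particle RNA (both genes) to 7SK counts was 0.76 to 1.16 in oral WT, 3.44 and 2.39 in oral KO, 2.26 to 2.72 in pancreatic WT and 1.41 to 2.61 in pancreatic KO tumors. The second oral KO tumor thus also lay above every oral WT tumor in this ratio. The log2 ratio of Rpph1 to Rmrp was -1.12 to -0.13 in oral WT, -0.04 and 0.96 in oral KO, 0.07 to 0.94 in pancreatic WT and -0.23 to 0.96 in pancreatic KO tumors. The log2 ratio of Malat1 to Neat1 was 2.84 to 3.29 in oral WT and 2.20 and 2.68 in oral KO tumors, and 2.69 to 2.88 in pancreatic WT and 2.23 to 2.52 in pancreatic KO tumors. At both sites every KO tumor had less Malat1 per Neat1 than every WT tumor of that site. These ratios were chosen with values known and were not tested.

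**Figure D5:**
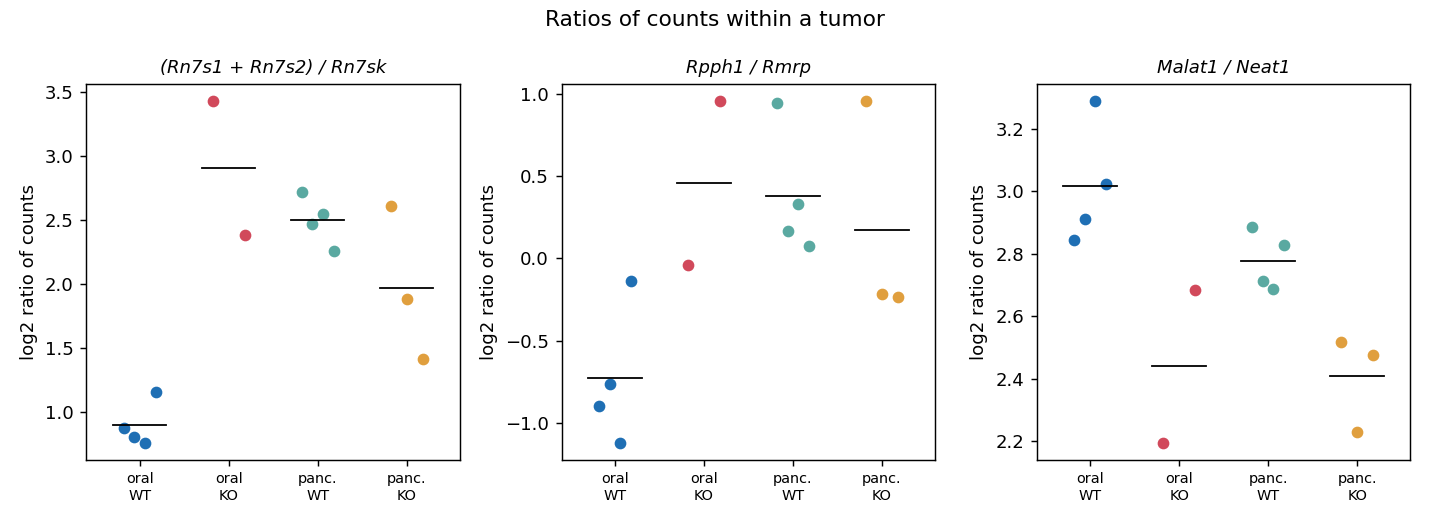
log2 ratios of counts within each tumor for 3 pairs of RNAs, each panel with its own axis; points are tumors and lines group means. For Malat1 to Neat1 the KO tumors lie below the WT tumors at each site, 2.20 and 2.68 against 2.84 to 3.29 in oral and 2.23 to 2.52 against 2.69 to 2.88 in pancreatic tumors.

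Over the 13 tumors, Malat1 and Neat1 went together (Pearson r of log2 CPM 0.957, and 0.967 over the 12 tumors without the first oral KO tumor), as did Rn7s1 and Rpph1 (0.952 and 0.883). Rn7s1 and Rn7sk did not (0.153 and -0.438). The tumors of a group share their site and breeding, so that these are descriptions without a test. Of the 16743 genes with a mean of at least 1 CPM, the gene outside the list most like Rnu12 was the lincRNA Gm38947 (r 0.979, and 0.973 over 12 tumors), and the one most like Malat1 was the TEC locus Gm44292 (r 0.977 and 0.977), which also led for Neat1 (r 0.956 and 0.967). Gm26461, the near copy whose reads can be shared with Rn7s1, led for Rn7s1 (0.918) and Rpph1 (0.919). Other genes took its place over 12 tumors, Styk1 (0.915) and Gm22973 (0.884). For Rmrp, Rny1 and Terc the leading gene (Frs3 0.953, D830030K20Rik 0.910 and Gm28042 0.921) also changed when the first oral KO tumor was left out, and over those 12 tumors 2010300C02Rik led for Rn7sk (0.981).

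Of 92 tested genes for proteins that work with these RNAs or transcribe them, 10 were called in oral KO tumors (10.9%, against 11.7% of all genes). By direction 3 were called higher and 7 lower, against 1968 higher and 646 lower of all 22342 genes tested. In oral KO tumors 1 of 10 signal recognition particle proteins and receptor subunits rose and 1 fell: Srp54b, which has near-identical copies so that its value is uncertain, by 2.37 on the log2 scale, and Srp9, which binds the Alu end of the RNA, with a log2 fold change of -1.08 (SE 0.24, edgeR adjusted p = 0.0328). Of 7 genes of the 7SK particle and P-TEFb, Hexim1, the inhibitor held on 7SK, fell (log2 -1.24, SE 0.25, edgeR adjusted p = 0.0277), and none rose. Of 11 RNase P and MRP proteins none was called at a median of -0.38; by unadjusted p, Rpp25l (-0.88) and Rpp38 (-0.95) led. Of 5 Y RNA binding proteins Ssb, the La protein, fell (log2 -1.03, edgeR adjusted p = 0.0353), and of 8 telomerase proteins Gar1 (-1.20) and Nop10 (-1.21), which bind the H/ACA part of Terc, fell. Of 12 minor spliceosome proteins Snrnp48 rose (1.09), of 13 paraspeckle and speckle proteins Nono, a core paraspeckle protein, fell (-1.06, SE 0.18, edgeR adjusted p = 0.0217), and of 26 genes of RNA polymerase III and its factors Snapc3 rose (1.03) and Gtf3a, the factor of 5S RNA genes, fell (-1.52). Without the first or without the second oral KO tumor 1 KO tumor remained, and far fewer of all genes were called. In both fits all 10 log2 fold changes of these protein genes kept their sign, as for Hexim1 (-1.18 and -1.30), Nono (-0.96 and -1.16), Snapc3 (1.06 and 1.02) and Srp54b (2.02 and 2.66).

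In the pancreatic KO comparison none of these 8 lists of proteins held a called gene, and their medians ran from -0.06 to 0.18. Between the WT tumors Hexim2 (log2 1.66, SE 0.44, edgeR adjusted p = 0.0243) and Polr3gl (1.01, SE 0.19, edgeR adjusted p = 0.0068) were higher in oral tumors and no other protein of the lists was called. In the test of tissue by genotype 15 of the 92 protein genes tested were called, all with the lower change in oral tumors (16.3%, against 4.85% of all genes called in that direction), among them Hexim1 (-1.48) and Nono (-1.59).

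Against 8.81% of all genes called higher, 9 of 17 other small structural RNAs tested in oral KO tumors were, and 0 were called lower. Their median log2 fold change was 1.82. The 4 with the smallest adjusted p were the U3 genes Rnu3a (2.54, SE 0.27, edgeR adjusted p = 0.0117; 5.76 to 8.65 CPM in WT, 34.1 and 39.9 CPM in KO tumors) and Rnu3b1 (2.74), which guide cuts of the ribosomal RNA precursor, the vault RNA Vaultrc5 (3.40) and the Cajal body RNA Scarna6 (1.82). U3 genes are near copies of each other. In fits that left 1 oral KO tumor, the median was 1.3 without the first and 2.19 without the second. The KO tumors differed here: 5 of the 17, Scarna2 (-1.10), Scarna13 (-0.70), Snora73a (-0.45), Snora73b (-0.30) and Scarna17 (-0.27), were below 0 without the first KO tumor, and none was below 0 without the second. In pancreatic KO tumors Rprl3, which is named for its likeness to RNase P RNA, fell by 1.58 on the log2 scale (SE 0.26, edgeR adjusted p = 0.0475), and it was also lower in oral than in pancreatic WT tumors (-1.14).

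Of 16 other long non-coding RNAs, Kcnq1ot1, the antisense RNA of an imprinted domain, rose in oral KO tumors (log2 2.11, SE 0.37, edgeR adjusted p = 0.0231), as did Dleu2 (1.42) and Pvt1 (1.22), and none fell. These are 3 of 16 called higher, against 8.81% of all genes. Dleu2 was at 1.82 without the first oral KO tumor and at 0.87 without the second. None was called in pancreatic KO tumors, where H19 (-0.88) and Meg3 (1.21) had the smallest unadjusted p. Between WT tumors the imprinted RNA H19 (2.32) and Snhg3 (1.07) were higher in oral tumors.

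Both oral KO tumors, with which all calls of the oral comparison go, held the muscle markers given above, and of the 12 muscle markers 1, Myh4, was called there (log2 7.40, SE 1.34, edgeR adjusted p = 0.0253; median of the list 4.04). Of the 8 fibroblast markers Dcn (-3.40) and Lum (-2.09) fell in the oral KO tumors, while the median of the list was -0.23 and the summed levels overlapped (8954 to 14050 CPM in oral KO and 10530 to 22340 CPM in oral WT tumors). The high snoRNA share of both KO tumors is given above as well. The part of muscle RNA, of this share and of the low protein-coding share of the first KO tumor in the differences of the structural RNAs was not tested.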

How the data were processed

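Bulk RNA sequencing (rRNA-depleted, stranded total RNA) was analysed from 13 mouse tumors. The authors trimmed reads with Trim Galore 0.6.10, checked them with FastQC 0.12.1, quantified GENCODE M23 transcripts with kallisto 0.50.0 in stranded mode and summed them by gene with tximport. The deposited values are estimated counts per gene, of which 27.29% were not whole, and they were rounded for the tests. kallisto shares reads among transcripts with the same sequence, so that near copies of these small RNAs divide counts. The protocol keeps RNAs without a poly(A) tail, and purification and fragment selection can lose the shortest.

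Of 56085 rows 55332 had values, and 55141 identifiers had an entry in GENCODE M21 (GRCm38), used for positions, lengths and sequences. Total counts per tumor stand at the start of the report. CPM are estimated counts scaled to a library total of 1e6. Genes that reached 10 counts in 2 or more tumors of a fit were tested with edgeR 4.0.16 in R 4.3.3 (TMM normalisation, robust quasi-likelihood test), with Benjamini-Hochberg adjustment over all genes tested. A gene was called at an adjusted p under 0.05 and a log2 fold change beyond 1. The SE was the log2 fold change divided by the square root of F. All tests were two-sided. Tumors were grouped by the labels, and nothing there says more of how tumors of a group are related, so that p-values measure the spread between these tumors. DESeq2 1.42.0 with apeglm 1.24.0, other scalings, no count filter, a block for the tumor number, a joint fit and leaving out each tumor were alternatives, and summing near copies (genes with at least 10% of the 31-base words of a member) was added after seeing the data. The edgeR script was tested on simulated data.

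The members and lists were chosen with earlier results of these data known. Named beside the members were up to 4 called genes per list with the smallest adjusted p, otherwise up to 2 with the smallest unadjusted p, and for each member the gene with the highest Pearson r of log2 CPM (prior count 2). Neighbouring genes, near copies and marker genes are named beside the member they touch. For Rn7sk the leading gene over 13 tumors is not reported here.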

Additional observations from a re-analysis of the deposited data

Results flagged for a closer look

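The KO change differed between oral and pancreatic tumors for 6 of the 10 genes, by the test of tissue and genotype in edgeR, against 7.41% of all genes called in that direction and 12.3% in either. The difference of the log2 changes (oral minus pancreatic) was 3.78 for Rnu12, 3.17 for Rn7s1 and 3.17 for Rn7s2 (the same counts), 2.21 for Rpph1, 2.04 for Neat1 and 1.90 for Malat1. For Rnu12 it ran from 3.34 to 4.24 over 20 alternatives with an adjusted p of at most 0.0187. For Rn7s1 it was 1.5 (edgeR adjusted p = 0.0752) and for Rpph1 0.85 (edgeR adjusted p = 0.232) without the first oral KO tumor, where Malat1 (1.96, edgeR adjusted p = 0.0657) and Neat1 (1.85, edgeR adjusted p = 0.0989) were not called either. In the 18 sets of 4 WT tumors examined, no tumor's gap to its nearest neighbour exceeded Dixon's 95% critical share of the range.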

How the results depend on the processing

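In the oral comparison 5 of the 10 genes were called, 1 with the tumor number as a replicate block, and from 1 to 4 when single tumors were left out. Between WT tumors 4 were called, and from 2 to 4 when single tumors were left out. For tissue by genotype 6 were called, 3 without the count filter, 3 with the replicate block and from 2 to 6 when single tumors were left out. In the pancreas 0 were called in all 16 alternatives. The labels do not say whether the tumor numbers pair the tumors. Deviations of same-numbered tumors from their group means correlated at -0.08 and -0.04 in oral, 0.32, -0.02 and -0.07 in pancreatic tumors. With so few tumors per group these values cannot decide it. Over all genes, the block left 43 higher and 22 lower calls of 1968 and 646 in oral tumors, gave 189 and 401 against 83 and 72 in the pancreas, and 824 and 636 against 1914 and 1254 for tissue by genotype. Without the second oral WT tumor 19 of all genes were called higher and 17 lower in the oral comparison.

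Directions turned in few values. In oral tumors Rn7sk was at -0.01 with the block and Rn7sk, Rmrp and Terc ran from -0.66 to 0.73, -1.27 to 1.78 and -8.88 to 0.58. In the pancreas Rnu12 was at 0.0012 without the count filter and ran from -0.48 to 0.16, and Neat1 from -0.33 to 0.20. For tissue by genotype Terc was at 0.15 with protein-coding scaling and ran from -8.92 to 1.06, Rn7sk from -0.43 to 0.95 and Rmrp from -1.0 to 2.05. The cause was not tested. Scaling on protein-coding genes moved the median of all genes to 0.186 in oral tumors (2442 higher, 312 lower) and to 0.175 for tissue by genotype (2223 and 653). DESeq2 with apeglm gave 2513 and 1000 calls in oral and 334 and 556 in pancreatic tumors, and also called Rpph1 (1.48, DESeq2 adjusted p = 0.0062) and Rny1 (1.29, DESeq2 adjusted p = 0.0106) in oral tumors. As a share of protein-coding counts the median of the members in oral WT tumors was 4.98% in place of 4.44%, and that of Rn7s1 and Rn7s2 2.70% in place of 2.41%. In the first oral KO tumor the shares were then 33.8% in place of 20.1% and 27.9% in place of 16.6%. Over the members, the direction and the side of the threshold stayed in 114 of 150 values in oral tumors, 154 of 160 in the pancreas, 163 of 170 between WT tumors and 160 of 200 for tissue by genotype. Terc rests on 0 to 83.4 counts per tumor, the fewest of the members.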

Other observations

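A near copy of 7SK stood out in pancreatic KO tumors. Gm24447 (chr15:93234363-93234700, plus strand, 338 bases) matches the first 241 bases of Rn7sk, and was singled out after its values were seen. Bases 222 to 281 of both are shown because the sequences part there, with capitals from the first base that differs.
Rn7sk: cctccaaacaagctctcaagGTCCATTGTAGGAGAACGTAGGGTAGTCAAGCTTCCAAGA
Gm24447: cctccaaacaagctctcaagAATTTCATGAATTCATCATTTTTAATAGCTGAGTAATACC
Gm24447 was read at 11.3 to 13.1 CPM in pancreatic WT tumors and at 135.7 to 145.3 CPM in pancreatic KO tumors, and at 16.0 to 20.6 CPM in oral WT and 33.1 and 16.0 CPM in oral KO tumors. It amounted to 0.137% to 0.151% of the Rn7sk count in pancreatic WT and to 1.84% to 1.90% in pancreatic KO tumors. The log2 fold change in the pancreas was 3.40 (SE 0.10, edgeR adjusted p = 4.52e-06), rank 2 of 24653 genes by p, against 0.68 (SE 0.41, edgeR adjusted p = 0.268) in oral tumors, and the difference of the changes was -2.81 (edgeR adjusted p = 0.0055). Rn7sk itself was not called in the pancreas, with or without its near copies. Reads inside the 241 shared bases fit both Gm24447 and Rn7sk, so that sequence alone cannot assign them to either gene. All pancreatic KO libraries also held more counts (at least 89562790) than any other library (at most 46134830). Genotype and library size therefore cannot be told apart in the pancreas. The part of shared reads and of library size in the Gm24447 values was not tested.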
